A study of Homo sapiens with 2 samples.

Results

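Receptor tyrosine kinases were described in RNA sequencing of HEK293T, an established cell line of human embryonic kidney origin, from 1 library of cells given SRα siRNA and 1 library of cells given control siRNA. SRα, encoded by SRPRA, is the alpha subunit of the receptor that docks the signal recognition particle (SRP) at the endoplasmic reticulum (ER). The family was taken as 57 gene symbols, each matched through its Ensembl gene ID to 1 of the 57820 genes in both count files. The comparison asks whether the messages of these receptors stand at other levels when SRα is depleted. Reads in genes numbered 3896721 with SRα siRNA and 2445200 with control siRNA. Neither group has a replicate, so the conditions could not be tested against each other, and every interval given is a 95% counting interval, which holds the error of counting reads and no variation between cultures.

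Receptor tyrosine kinases are membrane proteins with an extracellular domain that binds a growth factor or another ligand, a transmembrane helix and a cytoplasmic tyrosine kinase domain. Ligand binding brings receptors together, the kinases phosphorylate one another, and adaptor proteins dock on the phosphotyrosines and feed the RAS-RAF-ERK and PI3 kinase pathways. Like other proteins of the plasma membrane they are made at the ER, and most carry an N-terminal signal sequence of the kind that SRP binds. Some members, the pseudokinases such as ERBB3, PTK7, RYK and EPHB6, have lost most or all catalytic activity and signal through partners.

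SRPRA had 449 reads (117 CPM, reads scaled to a common library size with TMM factors) in the SRα siRNA library, against 507 reads (205 CPM) in the control siRNA library. Its ratio was 0.570 (0.501 to 0.648), so the targeted message was lower in the library labelled SRα siRNA. All 8 genes listed as known in HEK293 cells averaged 1 CPM or more, and 6 of them were higher with SRα siRNA (median log2 ratio 0.19). Of all 12747 genes averaging 1 CPM or more 6554 were higher. The intermediate filament genes VIM and NEFM were at 0.31 (0.18 to 0.44) and 0.32 (0.10 to 0.53), both intervals above 0. Such an interval was found for 5.46% of all genes averaging 1 CPM or more. VIM had 1485 reads (386 CPM) in the SRα siRNA library, against 771 reads (311 CPM) in the control siRNA library. The keratin genes KRT8 and KRT18 were at -0.30 (-1.14 to 0.55) and -0.10 (-0.59 to 0.40). PAX2, a kidney lineage factor, picked after its values were seen, had 7 reads in the SRα siRNA library and 1 in the control siRNA library. It is 1 of the 6 higher genes and reached an average of 1 CPM only through the SRα siRNA library (1.82 CPM, against 0.404 CPM). Of 12 markers of blood, endothelial, liver and muscle cells 11 were found in the files, with 5 reads in all in the SRα siRNA library and 6 in the control siRNA library. The leukocyte marker PTPRC and the endothelial markers CDH5 and VWF had no read.

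Most of the family had reads in these HEK293T libraries. Of 57 receptors 42 averaged 1 CPM or more across the pair of libraries and are called measured here, 6 had reads below that limit, and 9 had no read in either library. Among all protein-coding genes 11460 of 19263 were measured by the same limit. Of the 42 measured receptors 14 averaged only 1 to 5 CPM. The measured receptors together took 3442 reads (0.0883% of gene reads) in the SRα siRNA library and 2420 reads (0.0990%) in the control siRNA library. In the SRα siRNA library the most-read receptor was PTK7, a pseudokinase of Wnt and planar polarity signalling, with 381 reads (99.0 CPM), against 255 reads (103 CPM) in the control siRNA library. It was followed by the ephrin receptor EPHA7, with 234 reads (60.8 CPM) in the SRα siRNA library, against 160 reads (64.6 CPM) in the control siRNA library. The other receptors lay between 1.13 and 51.7 CPM in the mean of both libraries, so all members were messages of low to moderate abundance, and most rested on fewer than 200 reads in a library.

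Levels of different genes were compared per kb of exonic length, taken from GENCODE 29 by gene ID. PTK7 was highest, at 11.0 CPM per kb in the SRα siRNA library and 11.4 in the control siRNA library. EPHA7 came second with 8.16 CPM per kb in the SRα siRNA library and 8.67 in the control siRNA library, and its counting intervals lay below those of PTK7 in the SRα siRNA library (7.14 to 9.27, against 9.90 to 12.1) and overlapped them slightly in the control siRNA library (7.38 to 10.1, against 10.1 to 12.9). EPHA2, EPHB4, MET, MERTK, EPHA4, KIT and FGFR4 followed, at 5.76 to 7.12 CPM per kb in the SRα siRNA library and 5.88 to 8.25 in the control siRNA library. The intervals of these 7 overlapped one another, so their order is not fixed by these counts. Those of EPHA2, EPHB4 and MET also overlapped those of EPHA7 in both libraries, so the rank of EPHA7 is not fixed either. EGFR, the receptor for EGF, was lower, at 2.24 CPM per kb in the SRα siRNA library and 2.35 in the control siRNA library. PDGFRA was lowest in the mean of both libraries, at 0.107 CPM per kb in the SRα siRNA library and 0.166 in the control siRNA library, from 4 reads in each, while in the control siRNA library NTRK2 was lower still, at 0.139 CPM per kb.

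**Figure D1:**
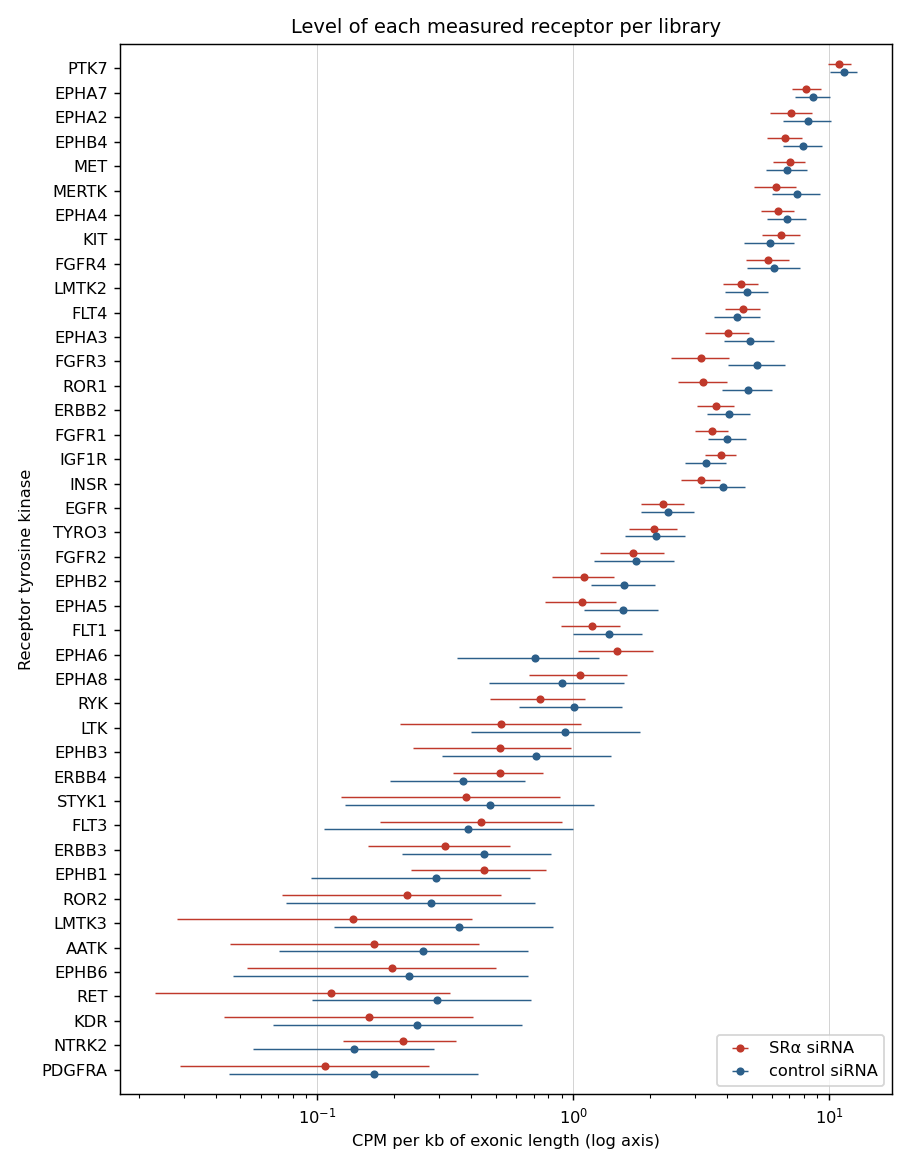
Level of the 42 measured receptor tyrosine kinases in CPM per kb of exonic length on a log axis, with SRα siRNA in red above control siRNA in blue and lines for exact 95% Poisson intervals of the counts. PTK7 lies highest at 11.0 with SRα siRNA and 11.4 with control siRNA, and the intervals widen towards the members with few reads at the bottom.

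The 9 receptors with no read were the insulin-receptor relative INSRR, the neurotrophin-3 receptor NTRK3, the agrin-responsive MUSK of the neuromuscular junction, AXL, the angiopoietin receptor TEK and its relative TIE1, the collagen receptor DDR1, ROS1 and ALK. A count of 0 allows a level of up to 0.780 CPM in the SRα siRNA library and 1.21 CPM in the control siRNA library (3 reads, counting error only). For 8 of these genes, between 11 and 17 of the 18 to 20 nearest protein-coding genes in the files had reads. DDR1 was different, since all 19 of its nearest protein-coding neighbours were also at 0 in both libraries. TUBB, a beta-tubulin gene that dividing cells use, the membrane scaffold FLOT1 and the mitochondrial valyl-tRNA synthetase VARS2 were among them. DDR1 is therefore only listed at 0, and whether HEK293T cells expressed it cannot be read from these counts. In both libraries most alignments (76.5% of entries with SRα siRNA and 79.6% with control siRNA) were not unique and were left out of the counts. The part this played at the DDR1 locus was not tested.

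The 6 receptors below the limit were EPHA10, DDR2, PDGFRB, MST1R, CSF1R and EPHA1. EPHA10, a pseudokinase, had 5 reads in the SRα siRNA library and 0 in the control siRNA library, and MST1R, the receptor of macrophage-stimulating protein, had 3 with SRα siRNA and 0 with control siRNA. DDR2 had 3 reads with SRα siRNA and 1 with control siRNA, PDGFRB had 2 with SRα siRNA and 1 with control siRNA, and CSF1R and EPHA1 each had 1 with SRα siRNA and 0 with control siRNA. No ratio was drawn from these counts. The limit fell between EPHB6 at 1.13 CPM and EPHA10 at 0.650 CPM in the mean of both libraries.

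Promoter sequence was set beside the read levels, using the 250 bases before the start for the 51 receptors in the RefSeq promoter table (GRCh38.p14), with 83 promoters in all. CpG dinucleotides, which are dense at promoters that are active in many tissues, are in capitals below. Shown are the 2 measured receptors highest in CPM per kb, and 2 receptors with no read and the fewest CpG apart from DDR1, among receptors with a single promoter in the table. ROS1 had as many CpG as MUSK, which was taken by alphabetical order.
EPHA2, chr1:16156070-16156319, minus strand: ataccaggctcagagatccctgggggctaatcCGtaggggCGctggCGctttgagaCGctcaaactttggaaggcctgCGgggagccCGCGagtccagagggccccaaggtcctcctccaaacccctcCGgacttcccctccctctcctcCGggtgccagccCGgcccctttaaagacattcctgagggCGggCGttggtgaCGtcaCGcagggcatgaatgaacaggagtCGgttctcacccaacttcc
EPHB4, chr7:100827524-100827773, minus strand: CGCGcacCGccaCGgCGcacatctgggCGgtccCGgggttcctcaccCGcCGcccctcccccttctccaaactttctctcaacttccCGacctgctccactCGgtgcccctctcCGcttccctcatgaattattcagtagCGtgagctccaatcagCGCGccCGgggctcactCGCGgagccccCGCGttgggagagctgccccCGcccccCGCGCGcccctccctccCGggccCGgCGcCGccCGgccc
TIE1, chr1:43300732-43300981, plus strand: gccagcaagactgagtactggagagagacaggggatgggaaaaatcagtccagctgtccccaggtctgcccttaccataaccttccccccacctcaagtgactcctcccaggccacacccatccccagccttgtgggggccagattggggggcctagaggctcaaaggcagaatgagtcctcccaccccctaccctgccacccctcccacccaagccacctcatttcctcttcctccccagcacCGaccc
MUSK, chr9:110668541-110668790, plus strand: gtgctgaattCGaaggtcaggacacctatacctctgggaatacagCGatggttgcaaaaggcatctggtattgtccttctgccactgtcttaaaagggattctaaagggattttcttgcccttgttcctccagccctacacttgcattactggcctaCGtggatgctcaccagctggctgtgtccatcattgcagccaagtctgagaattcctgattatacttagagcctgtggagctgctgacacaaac

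EPHB4 had 29 CpG in this window and EPHA2 had 15, against 3 in MUSK and 1 in TIE1. These 4 were chosen for their levels and their CpG and only illustrate the range. Over the family, the 38 measured receptors in the table had a median of 19.5 CpG per promoter (3 to 48, averaged over a gene's promoters), against 8.5 (1 to 23) in the 13 that were not measured. At least 10 CpG were found in 35 of the 38 and in 5 of the 13. Counted by promoter, at least 10 CpG were found in 71.9% of the 57 promoters of measured receptors, in 26.9% of the 26 of the others and in 52.2% of all promoters of the table, whose median was 11. The groups overlapped: NTRK3, with no read, had 23 CpG, while AATK and EPHB6, measured at a few reads, had 3 each. Without DDR1 the 12 other unmeasured receptors had a median of 6.25, and 4 of them had at least 10 CpG. The shares by promoter include DDR1, which holds 8 of the 26 promoters and whose expression cannot be read from these counts. The letters GGGCGG, searched on both strands and themselves holding a CpG, occurred in 41 of 57 promoters of measured receptors (71.9%), in 11 of 26 of the others (42.3%) and in 42.6% of all 35114 promoters of the table. TATAAA, also on both strands, occurred in 4 of 57 (7.02%), 2 of 26 (7.69%) and 10.7% of all promoters. Several promoters of 1 gene are not independent, so these shares are descriptions of the sequences only.

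**Figure D2:**
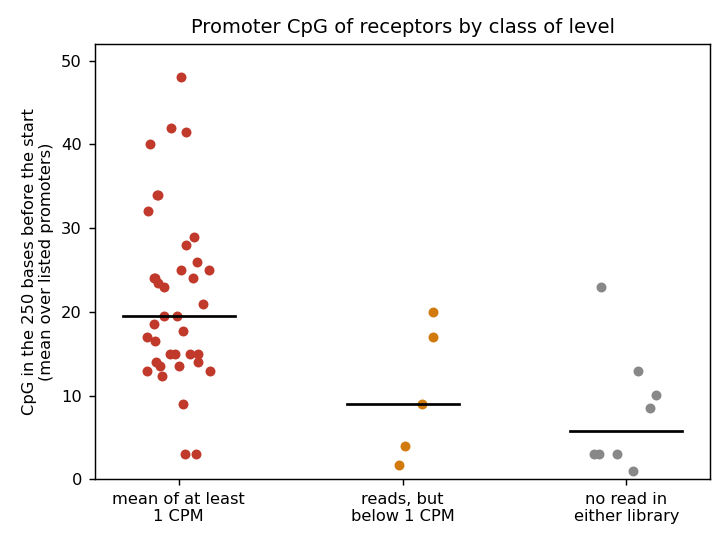
CpG count in the 250 bases before the start, averaged over the promoters listed for each receptor (y axis), by class of read level (x axis), with 1 point per receptor and a bar at the median of each class. Measured receptors lie mostly above 10 CpG, and most receptors without reads lie below it.

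Between the libraries, most receptor messages stood slightly lower with SRα siRNA, by amounts within counting error for nearly every single gene. Of the 42 measured receptors 32 had a lower CPM in the SRα siRNA library and 10 a higher one, against 48.6% lower among the 12747 measured genes of the files. Among the 32, RET and LMTK3 passed the limit of 1 CPM only through the control siRNA library. The median log2 ratio of SRα siRNA over control siRNA was -0.21 for the 42 receptors, against 0.01 for all measured genes. Summed over the measured receptors the level was 895 CPM with SRα siRNA and 977 CPM with control siRNA, a log2 ratio of -0.13 (-0.20 to -0.05). Summed in the same way, non-receptor tyrosine kinases were at 0.03 (-0.07 to 0.14). Receptor-type tyrosine phosphatases were at -0.18 (-0.28 to -0.08), so a lower sum was not particular to the receptors. In that sum 1 gene, PTPRF, held 895 of 1960 reads with SRα siRNA and 679 of 1426 with control siRNA. PTPRF, picked after its values were seen, was at -0.24 (-0.38 to -0.09), and the median of the phosphatases was -0.09. The genes known in HEK293 cells lay the other way, with 6 of 8 higher. Of these 6, PAX2 passed the limit of 1 CPM only through the SRα siRNA library. The part that this difference in the HEK293 genes had in the receptors' values was not tested. In bulk RNA, fewer cells carrying a message and less message per cell cannot be told apart.

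At the fixed size of 2-fold, 1 receptor was higher and 2 were lower, against 2.15% and 2.57% of all measured genes. The higher was EPHA6, and the lower were RET and LMTK3, with 3 reads each in the SRα siRNA library and 5 each in the control siRNA library. RET and LMTK3 were at 0.780 CPM with SRα siRNA and 2.02 CPM with control siRNA, so they passed the limit of 1 CPM only through the library in which they were high, and their place among the lower receptors shows nothing further. The counting interval lay wholly below equal levels for FGFR3 and ROR1 (3.39% of all measured genes) and wholly above for EPHA6 (5.46%). These shares among the receptors, 4.76% and 2.38%, are close to the background. Such an interval compares these 2 libraries and not the conditions.

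**Figure D3:**
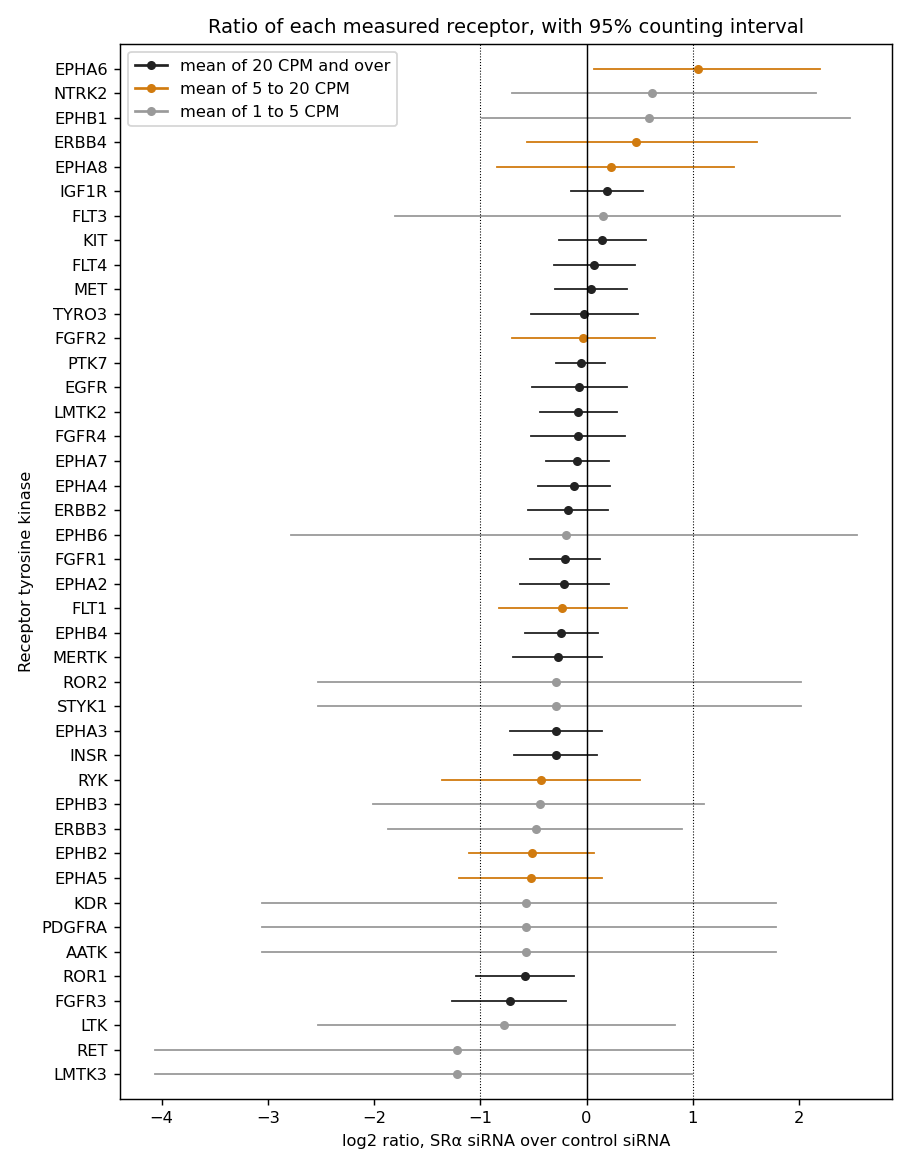
Log2 ratio of SRα siRNA over control siRNA (x axis) for each measured receptor (y axis), with exact 95% counting intervals, coloured by the mean CPM of both libraries and with dotted lines at 2-fold. 32 of 42 points lie left of 0, and all intervals but those of FGFR3, ROR1 and EPHA6 cross it.

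The lower tilt was seen at high levels and, on few reads, at low levels. Of 20 receptors averaging 20 CPM or more 16 were lower, with a median log2 ratio of -0.10, while 44.9% of 6807 genes at that level were lower and their median was 0.02. Among the 16, FGFR3 passed 20 CPM only through the control siRNA library, in which it was high (25.4 CPM, against 15.3 CPM with SRα siRNA). Between 5 and 20 CPM 5 of 8 receptors were lower (median -0.13, against -0.02 and 53.2% lower in 3297 genes). The higher ones, EPHA6, ERBB4 and EPHA8, passed 5 CPM only through the SRα siRNA library, in which they were high. The count at this level thus partly depends on the limit. Between 1 and 5 CPM 11 of 14 were lower, with a median of -0.46, against -0.05 and 52.4% lower in 2643 genes. These 11 include RET and LMTK3, which passed the limit of 1 CPM only through the control siRNA library. AATK, KDR and PDGFRA, also among them, had 4 reads in each library. At that lowest level a receptor had 3 to 17 reads in the SRα siRNA library and 3 to 10 in the control siRNA library, and no single ratio there could be told from equality.

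Of 24 receptors averaging 10 CPM or more 20 were lower, against 46.6% of 8544 genes and 46.5% of 8243 protein-coding genes. The setting with protein-coding genes was chosen after seeing the data. None of the 24 was past 2-fold, as were 0.117% (higher) and 0.0234% (lower) of those 8544 genes.

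The relation of the ratio to GC content was weak, and its part in the lower median was not tested. Across the 42 receptors the log2 ratio had a Spearman correlation of -0.20 (Pearson -0.31) with the GC content of the longest transcript, and across 12592 measured genes -0.16 (Pearson -0.11). With mean CPM the Spearman correlation was 0.35 across the receptors and 0.08 across all measured genes. With exonic length it was 0.24 across the receptors and 0.03 across all measured genes. The parts of level and length in the lower median were not tested. All points share the same pair of libraries and are not independent. With trends in GC content, exonic length and expression removed over all measured genes, the receptors' median log2 ratio was -0.16 and 31 of 42 were lower, against 51.3% of all genes. Use of strand in counting is not given in the sources used here. Exons of other genes on the opposite strand covered 5.53% and 1.88% of the exonic length of ERBB2 (MIEN1 and PGAP3), 5.44% of EPHA5 and 4.67% of EPHA4, and reads there cannot be assigned for certain. PDGFRA shared 15.75% of its exonic length with a protein-coding entry on the same strand, AC058822.1, which use of strand could not resolve.

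**Figure D4:**
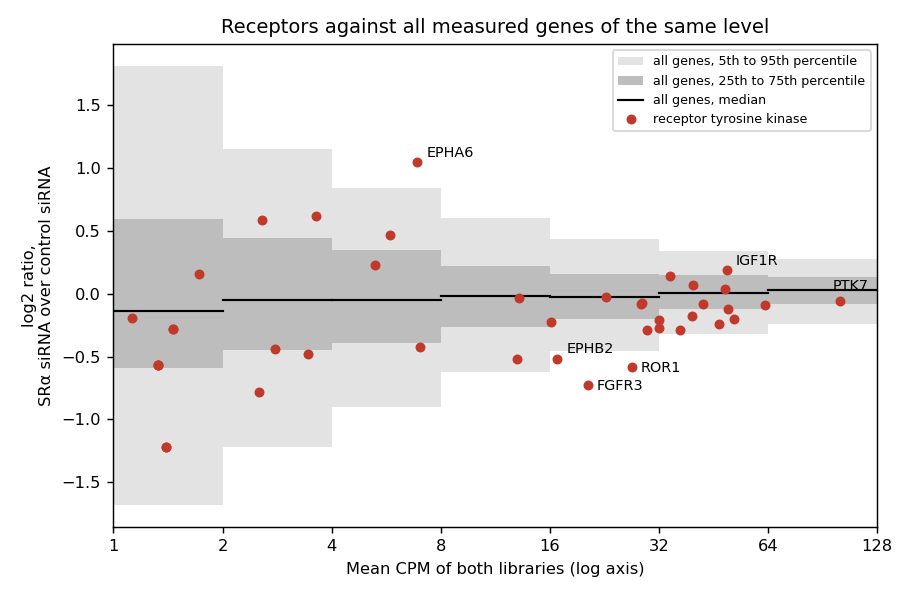
Log2 ratio of SRα siRNA over control siRNA (y axis) against mean CPM of both libraries (x axis, log), with receptors as red points and, for all measured genes of each range of CPM, the median as a line and percentile ranges in grey. Above 16 CPM most receptors lie below the median line, with FGFR3, ROR1 and EPHB2 below the grey area and IGF1R inside it.

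The FGF receptors, which bind fibroblast growth factors together with heparan sulfate, were lower in all 4 members with TMM scaling, although FGFR4 was at 0.06 after thinning to equal totals and at 0.0043 with trends in GC content, length and expression removed. FGFR3 was the farthest below equality, with 59 reads (15.3 CPM) in the SRα siRNA library, against 63 reads (25.4 CPM) in the control siRNA library. Its log2 ratio of -0.72 (-1.27 to -0.19), a ratio of 0.605 (0.415 to 0.874), was the lowest among receptors of at least 5 CPM. FGFR1 had 185 reads (48.1 CPM) in the SRα siRNA library, against 137 reads (55.3 CPM) in the control siRNA library, and a log2 ratio of -0.20 (-0.53 to 0.13). FGFR4 and FGFR2 lay nearer to equality, at -0.08 (-0.53 to 0.37) and -0.04 (-0.70 to 0.64). Summed over the 4 genes the level was 104 CPM with SRα siRNA and 124 CPM with control siRNA.

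In the ERBB family, the receptors of EGF and the neuregulins, EGFR and ERBB2 made up most of the reads. EGFR had 108 reads (28.1 CPM) in the SRα siRNA library, against 73 reads (29.5 CPM) in the control siRNA library, and a log2 ratio of -0.07 (-0.51 to 0.38). ERBB2, which has no known ligand and pairs with the other members, had 143 reads (37.2 CPM) in the SRα siRNA library, against 104 reads (42.0 CPM) in the control siRNA library, and a log2 ratio of -0.18 (-0.55 to 0.20). Both were within counting error of equal levels. ERBB3, the pseudokinase that binds neuregulin, had 11 reads in the SRα siRNA library and 10 in the control siRNA library, and ERBB4 had 26 reads in the SRα siRNA library and 12 in the control siRNA library. Their log2 ratios of -0.48 (-1.87 to 0.89) and 0.47 (-0.56 to 1.60) pointed in opposite directions and were not detectably different from 0 at this depth.

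The insulin receptor INSR and the IGF1 receptor IGF1R, which also form hybrids, lay on opposite sides of equality. INSR had 127 reads (33.0 CPM) in the SRα siRNA library, against 100 reads (40.4 CPM) in the control siRNA library, a log2 ratio of -0.29 (-0.68 to 0.10). IGF1R had 202 reads (52.5 CPM) in the SRα siRNA library, against 114 reads (46.0 CPM) in the control siRNA library, a log2 ratio of 0.19 (-0.15 to 0.53). The intervals overlapped. IGF1R had the highest ratio among receptors of at least 20 CPM.

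Among the receptors of the PDGF and VEGF classes, the best read in HEK293T were KIT, FLT4 and FLT1. KIT, the stem cell factor receptor, had 139 reads (36.1 CPM) in the SRα siRNA library, against 81 reads (32.7 CPM) in the control siRNA library, a log2 ratio of 0.14 (-0.26 to 0.56). FLT4 (VEGFR3), which binds VEGFC and VEGFD, had 157 reads (40.8 CPM) in the SRα siRNA library, against 96 reads (38.8 CPM) in the control siRNA library, at 0.07 (-0.30 to 0.46). FLT1 (VEGFR1) had 57 reads (14.8 CPM) in the SRα siRNA library, against 43 reads (17.4 CPM) in the control siRNA library, at -0.23 (-0.83 to 0.38). KIT and FLT4 thus had slightly more CPM in the SRα siRNA library and FLT1 slightly less, all within counting error. KDR (VEGFR2) and PDGFRA had 4 reads in each library, and FLT3 had 7 reads in the SRα siRNA library and 4 in the control siRNA library.

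MET, the receptor of hepatocyte growth factor, was nearly equal, with 190 reads (49.4 CPM) in the SRα siRNA library, against 119 reads (48.1 CPM) in the control siRNA library, and a log2 ratio of 0.04 (-0.30 to 0.38). MERTK and TYRO3, which bind GAS6 and protein S and take part in the clearance of dying cells, were read while their relative AXL was not. MERTK had 112 reads (29.1 CPM) in the SRα siRNA library, against 87 reads (35.1 CPM) in the control siRNA library, at -0.27 (-0.69 to 0.15), and TYRO3 was at -0.03 (-0.52 to 0.48). PTK7 had the narrowest interval of the family, at -0.06 (-0.29 to 0.18), which spans ratios of 0.818 to 1.13.

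The Wnt5a receptor ROR1 was the other well-read member with an interval below 0. It had 83 reads (21.6 CPM) in the SRα siRNA library, against 80 reads (32.3 CPM) in the control siRNA library, a log2 ratio of -0.58 (-1.04 to -0.12) and a ratio of 0.669 (0.485 to 0.919). The read counts were almost the same while the SRα siRNA library was deeper. ROR2 had 5 reads in the SRα siRNA library and 4 in the control siRNA library. RYK, a Wnt-binding pseudokinase, had 23 reads in the SRα siRNA library and 20 in the control siRNA library and a log2 ratio of -0.42 (-1.36 to 0.51), so all 3 of these receptors had a lower CPM in the SRα siRNA library.

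The EPH receptors bind ephrins on neighbouring cells and guide cell sorting and axons. They are the largest receptor tyrosine kinase family, and 12 of 14 members here were measured, 9 with a lower CPM in the SRα siRNA library and 3 with a higher one. Their summed level was 254 CPM with SRα siRNA and 285 CPM with control siRNA. EPHA7 had a log2 ratio of -0.09 (-0.38 to 0.21). EPHA4 had 183 reads (47.6 CPM) in the SRα siRNA library, against 128 reads (51.7 CPM) in the control siRNA library, at -0.12 (-0.45 to 0.22). EPHB4, a receptor for EFNB2, had 166 reads (43.1 CPM) in the SRα siRNA library, against 126 reads (50.9 CPM) in the control siRNA library, at -0.24 (-0.58 to 0.11). All of these were within counting error.

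EPHA2 had 114 reads (29.6 CPM) in the SRα siRNA library, against 85 reads (34.3 CPM) in the control siRNA library, at -0.21 (-0.63 to 0.21), and EPHA3 was close to it at -0.29 (-0.72 to 0.15). EPHB2 had 53 reads (13.8 CPM) in the SRα siRNA library, against 49 reads (19.8 CPM) in the control siRNA library, at -0.52 (-1.11 to 0.07). EPHA5 had 41 reads (10.7 CPM) in the SRα siRNA library, against 38 reads (15.3 CPM) in the control siRNA library, at -0.52 (-1.20 to 0.15). The intervals of EPHB2 and EPHA5 reached just past 0. EPHA6 went the other way, with 36 reads (9.36 CPM) in the SRα siRNA library, against 11 reads (4.44 CPM) in the control siRNA library. Its log2 ratio of 1.05 (0.07 to 2.20), a ratio of 2.07 (1.05 to 4.59), was the highest of all measured receptors and rested on 11 control reads. Among the 4 least read, EPHA8 (0.23) and EPHB1 (0.59) were above 0 and EPHB3 (-0.44) and EPHB6 (-0.19) below it, with intervals that reach past 0 on both sides.

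Of the remaining members only LMTK2, a membrane-anchored kinase of the lemur family, was well read, with 159 reads (41.3 CPM) in the SRα siRNA library, against 108 reads (43.6 CPM) in the control siRNA library, at -0.08 (-0.44 to 0.29). Its relatives LMTK3 and AATK were barely read: LMTK3 had 3 reads in the SRα siRNA library and 5 in the control siRNA library, and AATK had 4 reads in each library. The GDNF receptor RET had 3 reads in the SRα siRNA library and 5 in the control siRNA library. NTRK2, which encodes the BDNF receptor, had 17 reads in the SRα siRNA library and 7 in the control siRNA library. These counts are too small to order the receptors. LTK had 7 reads in the SRα siRNA library and 8 in the control siRNA library, and STYK1 had 5 reads in the SRα siRNA library and 4 in the control siRNA library. Log2 ratios of these 6 ran from -1.22 in RET and LMTK3 to 0.62 in NTRK2, and none could be told from 0 at this depth.

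Other genes of the pathway were taken from lists, with the 2 highest and 2 lowest members of at least 5 CPM named. Among those named below, DOK1, ETV1, SOCS5 and SPRED1 passed 5 CPM only through the control siRNA library. IRS2 and PTPRO passed it only through the SRα siRNA library. Each was high in the library named, so its place at the end of its list partly depends on the limit. Of 75 ligands 28 were measured and 17 of these were lower, with a median log2 ratio of -0.13. Among the 17, FGF8 and ALKAL2 passed the limit of 1 CPM only through the control siRNA library. NRG4, among the higher ones, passed it only through the SRα siRNA library. MDK, a heparin-binding growth factor, had 60 reads (15.6 CPM) in the SRα siRNA library, against 67 reads (27.1 CPM) in the control siRNA library, at -0.79 (-1.32 to -0.27). EFNA1, an ephrin, was at -0.53 (-1.19 to 0.13). In the other direction EFNB2, the ligand of EPHB4, was at 0.36 (-0.30 to 1.06) and WNT5A, which binds the ROR receptors, at 0.59 (-0.02 to 1.26). The genes INS, IGF1 and EGF had no read in either library, while the KIT ligand KITLG had 65 reads in the SRα siRNA library and 49 in the control siRNA library and the MET ligand HGF had 19 reads in the SRα siRNA library and 15 in the control siRNA library. These 5 were picked after their values were seen. Of 11 co-receptors 4 were measured and 3 of these were lower (median -0.13), with NRP2 at -0.03 (-0.33 to 0.28), NRP1 at -0.24 (-0.73 to 0.26) and the agrin receptor LRP4 at -0.27 (-0.80 to 0.26). The fourth, the GDNF co-receptor GFRA1, lay below 5 CPM and was the higher one, at 0.66 (-0.56 to 2.08), from 20 reads in the SRα siRNA library and 8 in the control siRNA library.

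Inside the cell, the lists lay nearer to the background. Adaptors and effectors were lower in 18 of 31 measured members (median -0.03). The adaptor DOK1 was at -1.08 (-2.07 to -0.18) and the PI3 kinase subunit PIK3CB at -0.93 (-1.60 to -0.29), while the insulin receptor substrates IRS2 and IRS1 were at 0.55 (-0.56 to 1.80) and 0.57 (-0.32 to 1.57). IRS4, another such substrate, picked after its values were seen, had 1830 reads (476 CPM) in the SRα siRNA library, against 1118 reads (451 CPM) in the control siRNA library, more reads than any measured receptor. In the RAS-RAF-ERK cascade 8 of 17 were lower (median 0.01), from MAP2K2 at -0.19 (-0.49 to 0.10) and ARAF at -0.16 (-0.70 to 0.39) to BRAF at 0.22 (-0.48 to 0.96). Genes induced by ERK signalling were lower in 6 of 12 (median 0.01), with ETV1 at -0.95 (-2.06 to 0.08), CCND1 at -0.11 (-0.36 to 0.15), JUN at -0.07 (-0.21 to 0.08) and MYC at 0.17 (0.08 to 0.27). KSR2 of the cascade and DUSP5 of the induced genes, both higher, passed the limit of 1 CPM only through the SRα siRNA library.

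Negative regulators were lower in 11 of 17 measured members (median -0.09), with SOCS5 at -0.95 (-2.06 to 0.08), SPRED1 at -0.71 (-1.85 to 0.38), the phosphatase PTPN2 at 0.25 (-0.18 to 0.69) and the EGFR inhibitor ERRFI1 at 0.30 (-0.40 to 1.05). Factors of receptor maturation and shedding were lower in 11 of 14 (median -0.04), with the convertases PCSK7 at -0.44 (-1.21 to 0.32) and PCSK6 at -0.23 (-0.85 to 0.40) and the chaperones HSP90AA1 at 0.03 (-0.01 to 0.08) and HSP90AB1 at 0.07 (0.03 to 0.12). Both HSP90 genes have near-identical copies in the genome, and only unique alignments were counted.

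Tyrosine kinases without a transmembrane segment are made on free ribosomes and served as a list of like catalytic function. Of 32 such kinases 18 were measured, 10 of them lower, with a median log2 ratio of -0.03. FER was at -0.33 (-0.89 to 0.22), TYK2 at -0.25 (-0.85 to 0.35), FYN at 0.18 (-0.11 to 0.47) and YES1 at 0.37 (-0.03 to 0.78). Receptor-type tyrosine phosphatases, which are membrane proteins, were lower in 9 of 11 measured members (median -0.09). PTPRA was at -0.56 (-1.02 to -0.12), PTPRG at -0.36 (-0.79 to 0.07), PTPRD at 0.44 (-0.14 to 1.05) and PTPRO at 0.69 (-0.34 to 1.87). No difference between the lists was tested, and the order of their medians depended on the limit on CPM and on thinning to equal totals.

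**Figure D5:**
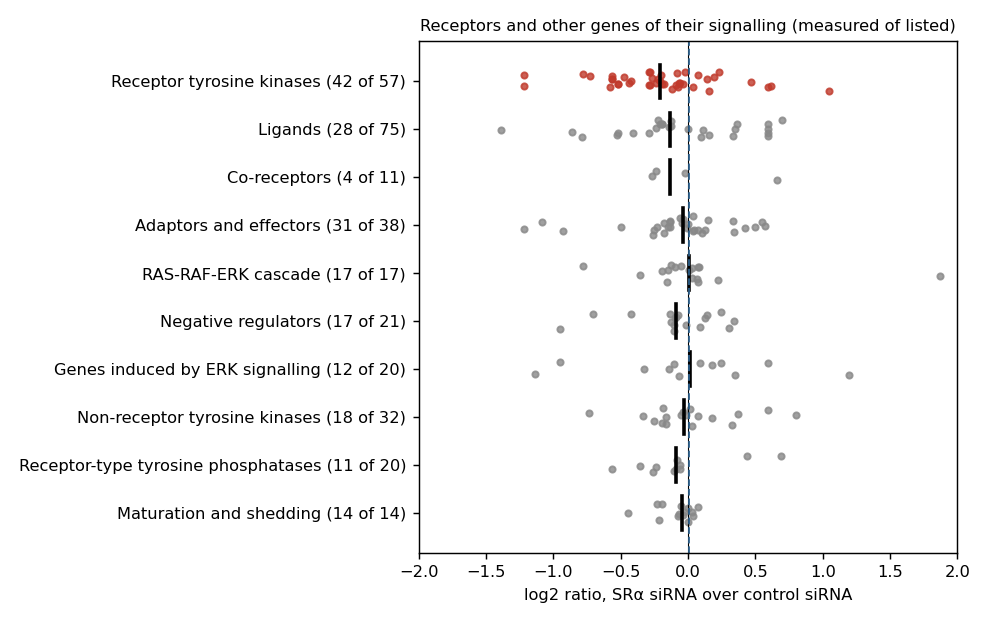
Log2 ratio of SRα siRNA over control siRNA (x axis) of each measured gene in the receptor tyrosine kinase family (red) and 9 lists of related genes (grey), with black bars at medians, the median of all genes as a dashed line and the numbers measured and listed beside each name. The median is -0.21 for the receptors and 0.01 for all genes, and 1 point lies outside the axis.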

How the data were processed

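RNA of HEK293T cells was sequenced in 1 SRα siRNA library and 1 control siRNA library, made with a stranded mRNA kit from TRIzol RNA per the labels' protocols. The authors deposited raw read counts, 1 whole number for each Ensembl gene ID. Cutadapt, STAR 2.5.2b and hg19 are named in the submitters' processing notes. Which program counted the reads, and whether by strand, is not given in the sources used here. Summary lines that name no gene were left out of library sizes: reads in no gene were 331803 with SRα siRNA and 200627 with control siRNA, and reads in several genes 203076 and 129676.

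Symbols came from a gene name table for 51996 IDs and from GENCODE 29 for 342. Counts were scaled with TMM (edgeR 4.0.16, R 4.3.3) to effective sizes of 3847820 and 2476276. Log2 ratios carry a prior count of 0.5 scaled to depth. Intervals are exact (Clopper-Pearson) for ratios and exact Poisson for levels. Reads carry no molecular identifiers, so intervals and limits cover counting error only. A called gene is one past 2-fold among those with a mean of at least 1 CPM. Exonic length and GC content came from GENCODE 29 by gene ID, and trends were removed with regression splines (4 degrees of freedom for expression, 5 for GC content, 4 for length). No hg19 annotation was used. The procedure was run on simulated Poisson counts with known ratios. These hold no variation between cultures, so the check covers the arithmetic and counting error only. Other scalings tried were library totals, upper quartile factors and the size factors of DESeq2 1.42.0. Other settings were no filter, 5 CPM, a prior of 2, thinning to equal totals and trend removal, and, added after seeing the data, protein-coding genes of at least 10 CPM. Tables were handled in pandas 2.3.3 and numpy 2.4.6 under Python 3.11.15, intervals came from scipy 1.17.1, and figures from matplotlib 3.10.9.

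The receptors and the 11 lists were chosen with earlier results of these data known, including that a list of signalling receptors was lower in the SRα siRNA library, so the direction found here is not independent of that choice. Named genes were SRPRA, every measured receptor, and the 2 highest and 2 lowest members of each list with a mean of at least 5 CPM. A gene that this rule takes is not reported here.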

Additional observations from a re-analysis of the deposited data

How the results depend on the processing

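No paired analysis was possible because each group has 1 library. Of the 42 measured receptors 32 were lower under DESeq2 size factors, library totals, upper quartile factors and a prior count of 2, with medians of -0.24 (library totals) to -0.20. The share lower among all genes was 47.9% to 48.7% in these settings except library totals, where it was 54.5% and the median of all genes was -0.03. With no filter 32 of 48 were lower (median -0.15; all genes 47.5%), after thinning to equal totals 29 of 41 (-0.19; all genes 48.1%), and with trends removed 31 of 42 (-0.16; all genes 51.3%). At a limit of 5 CPM 21 of 28 were lower (-0.10; all genes 47.6%), and among protein-coding genes of at least 10 CPM, chosen after seeing the data, 20 of 24 (-0.15; all genes 46.5%). These stricter limits leave fewer genes. Among the higher receptors at 5 CPM, EPHA6, ERBB4 and EPHA8 passed that limit only through the SRα siRNA library. With trends removed FGFR4, TYRO3 and MET crossed 0, at 0.0043, 0.02 and -0.02. The receptors' median was not the lowest of the lists at 5 CPM (co-receptors -0.24, ligands -0.17), at 10 CPM (co-receptors -0.24) or after thinning (receptor-type phosphatases -0.25). The counts past 2-fold rested on few reads: those higher were 5 with no filter and 0 with a prior count of 2, after thinning and at 10 CPM, and those lower were 4 after thinning and 0 with a prior count of 2, at 5 CPM and at 10 CPM. The 4 added with no filter were EPHA10, MST1R, CSF1R and EPHA1, with 0 control reads each, and after thinning ERBB3 was at -1.19, LTK at -1.25 and EPHB6 at -1.19. The median of the negative regulators was -0.13 with library totals. SRPRA kept its direction in every setting. Depth limits what single receptors can show: PTK7, with the most reads, could not be told from ratios between 0.818 and 1.13, and below 5 CPM every receptor's interval reached a 2-fold difference in at least 1 direction.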
